A study of Mus musculus with 12 samples.

Results

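Pitx1, Shox2, Prrx1, Prrx2, Alx1 and Alx4 encode paired-like homeobox transcription factors. They were taken by gene name from the deposited comparison of embryonic heart tube (HT) with posterior second heart field (pSHF), in which they are 6 of 21563 genes, and all 6 passed the filter on low values that left 14909 genes to test. The material came from E10.0 mouse embryos of the CD1 strain, genotype WT (wild type), with no transgene or treatment in either group, and poly-A RNA was sequenced in 6 HT and 6 pSHF libraries. HT is the muscular tube of the forming heart, and pSHF is the mesoderm at its posterior end, which is known to add cells to the atria and the septum between them. Both pieces were cut by hand from the same embryos and hold mixed cell types, and whether a library is 1 embryo or several is not given in the labels. All p-values therefore speak only of the spread among these libraries, which may in part be technical.

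Paired-like factors bind DNA through a homeodomain of 3 helices, and dimers of this class bind palindromes of the TAAT core. The residue at position 50, in the third helix, is known to set which bases follow that core. In mouse, Shox2 is needed for the sinoatrial node, the pacemaker at the venous end of the heart, where it keeps working-muscle genes low. Prrx1 and Prrx2 act in mesenchyme of the limbs, face and great vessels, Alx1 and Alx4 in mesenchyme of the face, limb and ventral body wall, and Pitx1 in the hindlimb, the jaw and the pituitary.

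The homeoboxes are printed because they define the family and show which members are close copies of each other. Each line gives the 180 bases that encode the homeodomain, read from GENCODE transcripts of the mouse build GRCm38, with the codon for residue 50 in capitals. Each of the 6 is split by 1 intron, and the spans on the genome are chr13:55826570-55828577 (minus strand) for Pitx1, chr3:66975869-66978323 (minus) for Shox2, chr1:163257901-163261977 (minus) for Prrx1, chr2:30878454-30879533 (plus) for Prrx2, chr10:103022264-103025272 (minus) for Alx1 and chr2:93668528-93675337 (plus) for Alx4.
Prrx1: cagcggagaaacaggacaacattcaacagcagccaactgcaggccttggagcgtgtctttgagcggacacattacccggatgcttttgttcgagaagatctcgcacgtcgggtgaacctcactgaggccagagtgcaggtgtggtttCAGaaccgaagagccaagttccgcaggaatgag
Prrx2: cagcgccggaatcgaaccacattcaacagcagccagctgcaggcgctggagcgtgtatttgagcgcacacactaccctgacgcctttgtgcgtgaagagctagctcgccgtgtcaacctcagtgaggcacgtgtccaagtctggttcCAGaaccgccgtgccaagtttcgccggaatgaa
Alx1: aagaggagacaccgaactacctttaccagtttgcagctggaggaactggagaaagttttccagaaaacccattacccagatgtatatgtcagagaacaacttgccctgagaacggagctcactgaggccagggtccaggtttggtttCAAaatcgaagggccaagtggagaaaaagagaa
Alx4: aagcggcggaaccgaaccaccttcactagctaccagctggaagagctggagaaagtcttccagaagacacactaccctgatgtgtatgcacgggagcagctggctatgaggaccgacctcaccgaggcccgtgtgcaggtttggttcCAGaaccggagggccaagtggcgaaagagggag
Shox2: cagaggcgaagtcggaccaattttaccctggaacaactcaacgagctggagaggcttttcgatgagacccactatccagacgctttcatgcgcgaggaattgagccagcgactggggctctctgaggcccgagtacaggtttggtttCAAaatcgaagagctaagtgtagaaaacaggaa
Pitx1: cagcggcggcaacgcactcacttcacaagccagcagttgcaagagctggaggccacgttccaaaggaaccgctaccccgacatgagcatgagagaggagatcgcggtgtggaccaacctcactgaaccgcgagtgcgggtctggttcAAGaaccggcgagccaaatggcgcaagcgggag
The codon for residue 50 was CAG in Prrx1, Prrx2 and Alx4 and CAA in Alx1 and Shox2, both glutamine codons. Pitx1 had the lysine codon AAG, the mark of the bicoid type. Prrx1 and Prrx2 shared 142 of the 180 bases (78.9%) and Alx1 and Alx4 138 (76.7%). The other 13 pairs shared 56.1% (Pitx1 and Shox2) to 70.0% (Pitx1 and Alx4).

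The deposited values are gene counts normalized by the authors in a way not fully known, called normalized gene counts here. HT libraries had an estimated depth of 20634400 to 25645400 reads and pSHF libraries of 19089600 to 26287300, and 1 read was worth 0.976 to 1.19 normalized gene counts in HT and 0.789 to 1.08 in pSHF. Libraries correlated across genes at 0.982 to 0.990 within a tissue and 0.873 to 0.895 between tissues; genes are not independent replicates. The labelled tissues carried their markers: all 8 listed heart muscle genes were higher in HT, and pSHF was higher for 12 of 13 listed second heart field genes. Over all genes tested, 38.3% passed as higher in HT and 40.0% as higher in pSHF (limma on log2 of the value plus 1, Benjamini-Hochberg adjusted p under 0.05).

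All 6 genes were higher in pSHF than in HT, against the 40.0% of tested genes called in that direction. Pitx1 entered the test through its pSHF level alone, which fixed its direction. The 6 genes fell into a group with small differences, Shox2 and Prrx2, and a group with large ones, Prrx1, Alx4, Alx1 and Pitx1. In the second group HT held at most 4.26% of the pSHF level, and in the first 54.7 to 57.4%. The pSHF level was more than 2-fold higher for 4 of the 6, against 13.6% of all genes tested. Under equal library totals, a scaling that moved the median log2 fold change of all genes from -0.02 to -0.26, Shox2 (-1.07) and Prrx2 (-1.11) also passed 2-fold, and the calls over all genes split into 3917 higher in HT and 8185 in pSHF in place of 5708 and 5968. For 5 of the 6 every pSHF library lay above every HT library, which held for 30.3% of genes tested; Shox2 was the exception. The median log2 fold change was -5.12 over the 6 and -0.02 over all genes. In bulk tissue, fewer cells that express a gene and less of its RNA per cell cannot be told apart.

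**Figure D1:**
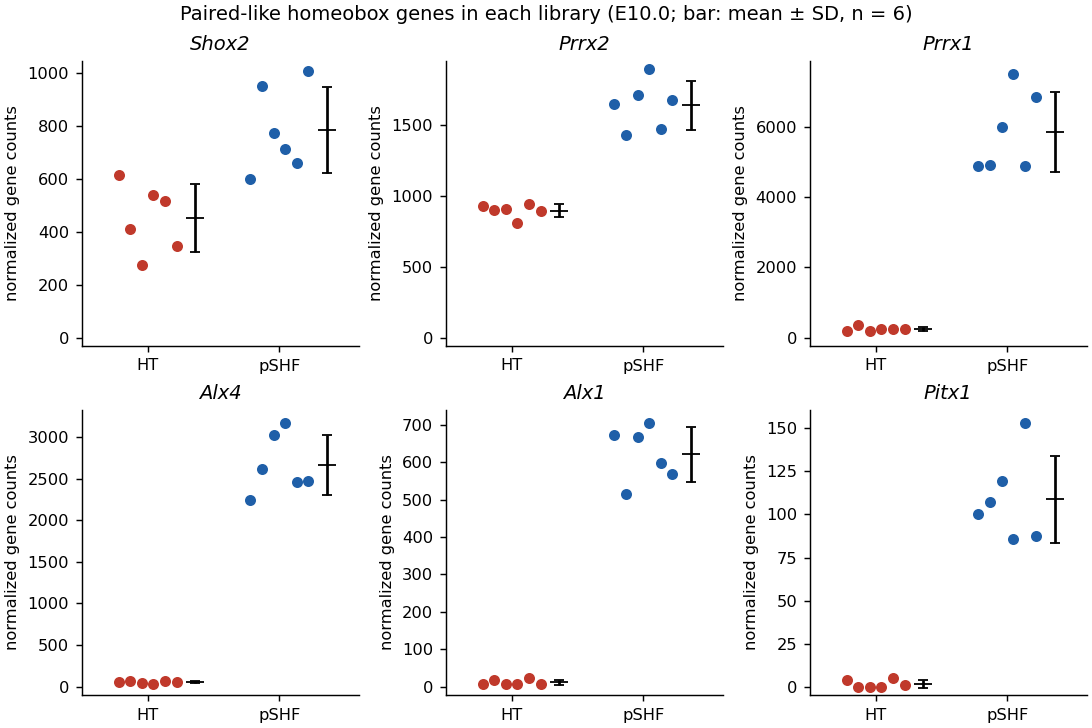
Normalized gene counts of the 6 genes in each library (linear axes, each from 0), with HT in red and pSHF in blue; the black mark and bar give the mean and SD of 6 libraries. The tissues overlap for Shox2, where the highest HT library (614.7) lies above the lowest pSHF library (597.7), and for none of the other 5.

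Shox2, the sinoatrial node factor (ENSMUSG00000027833.12; mm10 chromosome 3, 66971727 to 66981771, minus strand), was well above 0 in the normalized gene counts of every library of both tissues. Across HT libraries it ranged from 273.3 to 614.7 normalized gene counts, with a median of 463.4. Across pSHF libraries it ranged from 597.7 to 1007, with a median of 743.5. The mean was 449.7 ± 129 in HT and 783.1 ± 163 in pSHF (SD, n = 6 each). In limma the log2 fold change was -0.83 (SE 0.18, adjusted p = 7.2e-04). The tissues overlapped in their end libraries, HT library MR25 being the highest of its tissue and pSHF library MR13 the lowest of its own. The coefficient of variation of Shox2 was 28.6% in HT and 20.8% in pSHF, against 5.33% and 10.4% for Prrx2.

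Genes known to act with Shox2 at the venous pole did not share 1 direction. Of 12 sinoatrial node and venous pole genes, 7 passed toward pSHF and 4 toward HT, and the median log2 fold change was -0.43. Over all genes tested, 40.0% passed toward pSHF and 38.3% toward HT, so a mixed split is also what genes in general showed. Cacna1g, a T-type calcium channel gene of pacemaker cells, had the largest difference toward pSHF (a log2 fold change of -3.81, from 190.8 ± 60.4 in HT against 2616 ± 459 in pSHF). Tbx3, a repressor of the working-muscle program in the node, had a log2 fold change of -2.32 and Isl1 of -2.05. Hcn4, the main pacemaker channel gene, went the other way (a log2 fold change of 1.08, from 1429 ± 97.4 in HT against 685.9 ± 130 in pSHF), as did Tbx18 (0.67), Cacna1d (1.38) and the low-level connexin gene Gjd3 (8.68 ± 2.55 in HT and 3.28 ± 2.41 in pSHF). Tbx3, Hcn4, Tbx18 and Cacna1d were picked after their values were seen. All 6 working-muscle genes that the node keeps low were higher in HT, from Gja1 (log2 fold change 0.23) to Nppa, an atrial peptide gene (6.94). The difference of Gja1 is smaller than the shift of all genes under equal library totals.

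Prrx2 (ENSMUSG00000039476.9; chromosome 2, 30834972 to 30881251, plus strand) was the steadiest of the 6 in both tissues. HT libraries ranged from 806.6 to 942.7, with a median of 907.6, and pSHF libraries from 1431 to 1900, with a median of 1666. All pSHF libraries lay above all HT libraries. The mean was 898.3 ± 47.9 in HT and 1642 ± 171 in pSHF, and limma gave a log2 fold change of -0.86 (SE 0.064, adjusted p = 6.0e-09).

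Prrx1 (ENSMUSG00000026586.12; chromosome 1, 163245119 to 163313710, minus strand), its close paralog, differed far more. HT libraries ranged from 186.9 to 368.8, with a median of 244.0, and pSHF libraries from 4879 to 7501, with a median of 5456. No library of one tissue came near the other; within pSHF, libraries MR16 (7501) and MR18 (6848) stood highest, and within HT library MR26 did. The mean was 249.0 ± 65.7 in HT and 5839 ± 1140 in pSHF, and limma gave a log2 fold change of -4.56 (SE 0.15, adjusted p = 6.8e-13).

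The ratio of the pair differed between the tissues. In each HT library Prrx1 stood at 20.1 to 40.8% of the Prrx2 value, and in each pSHF library at 295 to 408% of it. The log2 ratio of Prrx1 to Prrx2 was -1.88 ± 0.365 in HT and 1.81 ± 0.171 in pSHF, a difference of -3.70 (exact permutation test over libraries, two-sided, p = 0.00216, the smallest that 6 against 6 libraries allow). A factor shared by a whole library cancels in a ratio within it, whereas a factor particular to a gene and library would not. Whether the deposited values hold such a factor is not known. Only this paralog pair met the minimum of 20 normalized gene counts in both tissues. These are ratios of counts, not per length, so they compare tissues and not the 2 genes; per kilobase Prrx2 had the higher mean in both tissues.

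**Figure D2:**
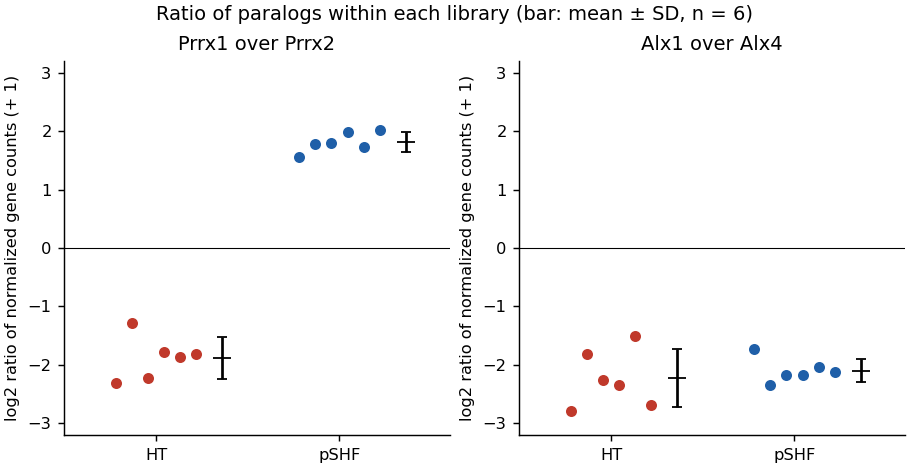
Log2 ratio of normalized gene counts (plus 1) of Prrx1 over Prrx2 and of Alx1 over Alx4 in each library, HT in red and pSHF in blue, with the mean and SD of 6 libraries in black. The Prrx ratio lies at -2.31 to -1.29 in HT and 1.56 to 2.03 in pSHF, whereas the Alx ratios of the tissues overlap.

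The start regions of the Prrx pair are shown because the paralogs differ so much in how their levels change, with that of Shox2 beside them; these 3 had an entry among the RefSeq promoters of GRCm38.p6. Each holds 250 bases before and 50 after the RefSeq start, with motif matches on either strand in capitals. The Prrx1 and Shox2 windows span the start of the GENCODE gene. That of Prrx2 lies inside its gene, which begins upstream at 30834972, so it is not the start of the gene as annotated here. Whether these bases bear on the levels was not tested.
Prrx1, chr1:163313601-163313900, minus strand: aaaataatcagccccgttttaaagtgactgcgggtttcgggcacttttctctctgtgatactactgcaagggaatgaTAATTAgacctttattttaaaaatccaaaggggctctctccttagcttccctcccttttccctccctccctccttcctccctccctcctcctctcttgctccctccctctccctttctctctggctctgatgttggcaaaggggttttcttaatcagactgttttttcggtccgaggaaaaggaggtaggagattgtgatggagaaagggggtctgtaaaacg
Prrx2, chr2:30845117-30845416, plus strand: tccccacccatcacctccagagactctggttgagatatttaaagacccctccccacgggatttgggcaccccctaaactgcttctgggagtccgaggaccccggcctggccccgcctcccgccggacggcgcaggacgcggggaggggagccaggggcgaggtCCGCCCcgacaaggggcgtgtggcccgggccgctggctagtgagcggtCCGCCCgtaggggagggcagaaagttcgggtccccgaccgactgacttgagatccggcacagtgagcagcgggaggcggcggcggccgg
Shox2, chr3:66981722-66982021, minus strand: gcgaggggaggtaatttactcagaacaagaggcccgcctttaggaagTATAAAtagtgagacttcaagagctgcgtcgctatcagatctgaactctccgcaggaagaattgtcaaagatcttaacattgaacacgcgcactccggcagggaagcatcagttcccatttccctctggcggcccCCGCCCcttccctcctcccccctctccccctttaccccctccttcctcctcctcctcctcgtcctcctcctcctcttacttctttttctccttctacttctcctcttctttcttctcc
The letters searched on both strands were TATAAA (in 13.6% of 32851 promoters), GGGCGG (35.7%), CCAAT (37.4%), TAATTA as a homeodomain core (5.29%) and the GLI consensus GACCACCCA (0.253%). Prrx1 held 1 homeodomain core and none of the others, Prrx2 held 2 GC boxes (GGGCGG), and Shox2 held 1 GC box and 1 match to TATAAA. That TATAAA match lies near the upstream end of the printed bases, far from the RefSeq start. The GC content was 47.7% with 6 CpG in Prrx1, 70.3% with 28 CpG in Prrx2 and 53.3% with 11 CpG in Shox2, against medians of 52.7% and 7 CpG over all promoters. A match is a description and not a site of binding.

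The Alx genes, factors of facial and body wall mesenchyme, stood over 50 times higher in pSHF than in HT. Alx4 (ENSMUSG00000040310.8; chromosome 2, 93642384 to 93681339, plus strand) ranged from 33.8 to 66.4 in HT, with a median of 53.9, and from 2242 to 3168 in pSHF, with a median of 2545. The mean was 52.2 ± 13.7 in HT and 2665 ± 358 in pSHF, 51.0 times as high, and the log2 fold change was -5.68 (SE 0.15, adjusted p = 8.2e-14 in limma).

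Alx1 (ENSMUSG00000036602.9; chromosome 10, 102998707 to 103030215, minus strand) ranged from 5.85 to 22.7 in HT, with a median of 7.71, and from 515.3 to 704.1 in pSHF, with a median of 632.2. The HT libraries MR26 (18.2) and MR29 (22.7) stood above the other HT libraries, and the same libraries held the most Alx4 in HT (66.4 and 66.3). The mean was 11.4 ± 7.16 in HT and 620.7 ± 72.4 in pSHF, 54.2 times as high, with -5.81 on the log2 scale (SE 0.28, adjusted p = 3.2e-11 in limma). Alx1 stood at 12.8 to 34.2% of Alx4 in HT and at 19.7 to 30% in pSHF; this ratio was not tested because Alx1 is under the minimum in HT.

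Pitx1, the hindlimb and jaw factor (ENSMUSG00000021506.7; chromosome 13, 55825051 to 55836192, minus strand), had the lowest level of the 6 in both tissues. It was listed at 0 in 3 HT libraries and at 1.00, 3.82 and 4.96 in the others. In pSHF it ranged from 85.6 to 152.9, with a median of 103.7. The tissues did not overlap, and library MR17 was the highest in pSHF. The mean was 1.63 ± 2.20 in HT and 108.8 ± 25 in pSHF, and the log2 fold change was -5.78 (SE 0.45, adjusted p = 1.1e-08 in limma). With an HT mean under the filter of 5, Pitx1 entered the test through pSHF alone, which fixed its direction. Its p-value is therefore a description and no test. Because HT is so close to 0, the size depends on the pseudocount and was -6.39 with 0.5 and -4.14 with 5.

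**Figure D3:**
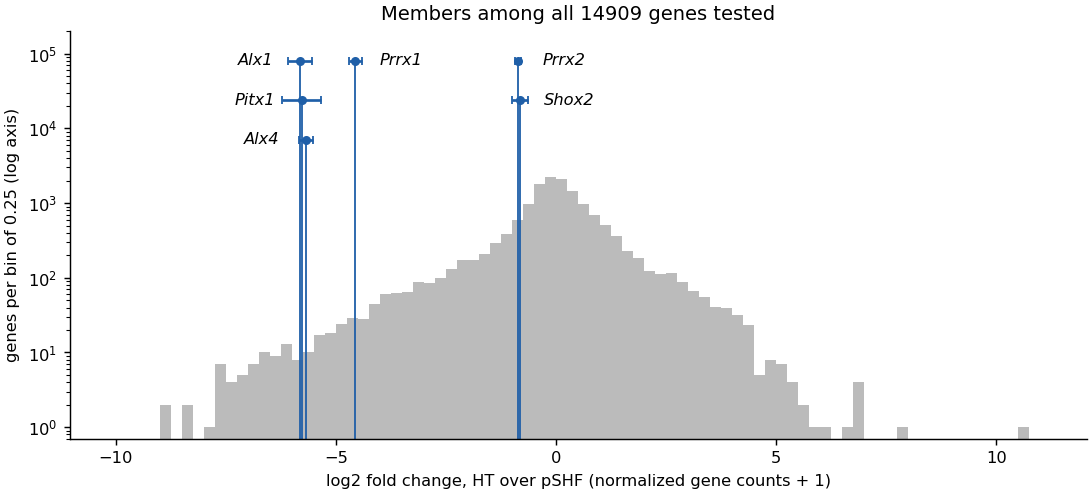
Log2 fold changes (HT over pSHF) of the 14909 genes tested as a histogram with a log count axis; blue points and bars mark the 6 genes with their standard errors, at heights chosen for legibility. Alx1, Pitx1, Alx4 and Prrx1 lie in the far pSHF tail, while Prrx2 and Shox2 lie near the bulk.

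Among the 14909 genes ordered from the most negative log2 fold change, Alx1 came 66th, Pitx1 67th, Alx4 70th and Prrx1 158th, while Prrx2 came 2342nd and Shox2 2439th. Levels between genes were compared per kilobase of annotated exon. In pSHF the order was Prrx2 (837 ± 87.3 normalized gene counts per kilobase), Prrx1 (528 ± 103), Alx4 (377 ± 50.7), Shox2 (237 ± 49.3), Alx1 (108 ± 12.6) and Pitx1 (40.9 ± 9.43). Library ranges of Prrx1 (441 to 678) and Alx4 (318 to 449) overlapped, and those of the other neighbours did not. In HT the order was Prrx2 (458 ± 24.4), Shox2 (136 ± 38.8), Prrx1 (22.5 ± 5.93), Alx4 (7.40 ± 1.93), Alx1 (1.99 ± 1.24) and Pitx1 (0.614 ± 0.829). There Alx1 (1.02 to 3.94) and Pitx1 (0 to 1.87) overlapped. The order in pSHF depends on the length used: per kilobase of the longest coding transcript Prrx2 (993 to 1320) and Prrx1 (748 to 1150) overlapped, and with the mean coding transcript Shox2 (447) passed Alx4 (433).

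Genes with the most similar profile were found by the root mean square difference over the 12 libraries between log2 profiles, each centred on its own mean. Alx1 and Alx4 were near each other (0.352), Alx4 being the second nearest of all genes to Alx1. The genes nearest to Alx4 were Gli1, the Hedgehog-induced factor (0.299), Hoxb3, a Hox factor of the hindbrain and pharynx (0.335), and Epcam, an epithelial adhesion gene (0.335). Nearest to Alx1 were Epcam (0.338), Alx4 and Hoxb3 (0.368). Nearest to Pitx1 were Crabp2, a retinoic acid binding protein gene (0.654), Vwa2 (0.675) and Alx4 (0.729). Nearest to Prrx1 were Lrig3 (0.254), Hmx1 (0.269) and the neurotrophin gene Bdnf (0.277). Hmx1 was near 0 in HT (0.316 ± 0.49, against 29.4 ± 8.16 in pSHF), so its distance depends on the pseudocount of 1. Zfp85 (0.208), Zfp536 (0.245) and Tnfrsf25 (0.25) were nearest to Shox2, and Zfp689 (0.0741), the actin-bundling gene Fscn1 (0.0861) and Dlg5 (0.0896) to Prrx2. Prrx1 and Prrx2 were far apart (1.87), with Prrx2 the 2098th nearest gene to Prrx1. Every such distance is governed first by the difference between tissues.

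Other genes of the homeobox class and of tissues where these factors are known to act were mostly higher in pSHF too. Of 24 other paired-class homeobox genes in the table, 11 were tested, 7 of them higher in pSHF, 3 in HT and 1 not called; the other 13 were under the filter. The shares over all genes tested were 40.0% higher in pSHF and 38.3% higher in HT. The largest difference toward HT in that list was that of Hopx, a heart muscle factor without DNA-binding activity (3166 ± 226 in HT and 92.8 ± 34.5 in pSHF). Of 12 limb and body wall mesenchyme genes tested, 11 were higher in pSHF, led by Tbx4, a factor of the hindlimb and of the mesoderm around the lung bud (12.6 ± 3.61 in HT and 1110 ± 231 in pSHF). Hand2, at 2393 ± 121 in HT and 788 ± 105 in pSHF, was higher in HT. Of 12 pharyngeal arch mesenchyme genes tested, 10 were higher in pSHF, Gsc most (1.51 ± 2.24 in HT and 292.9 ± 50.4 in pSHF), 1 was higher in HT (Hand2) and 1 was not called.

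**Figure D4:**
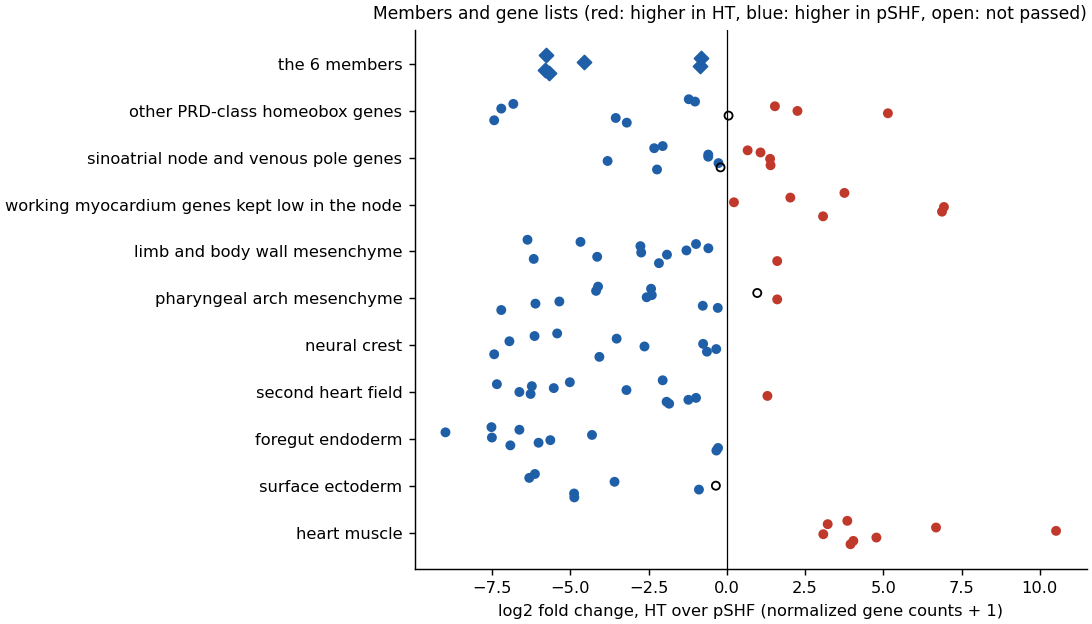
Log2 fold changes (HT over pSHF) of the 6 genes (diamonds) and of 10 gene lists, one point per gene tested, red where higher in HT, blue where higher in pSHF and open where the adjusted p did not pass. Limb, pharyngeal arch, neural crest, endoderm and ectoderm genes lie mostly on the pSHF side with the 6, and all heart muscle genes on the HT side.

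The posterior Hox genes of the hindlimb list were at or near 0. Of 7 hindlimb genes linked to Pitx1, Hoxc10, Hoxc11 and Hoxd11 were listed at 0 in all 12 libraries, Hoxc9 and Hoxd10 were listed at 0 in HT and averaged at most 0.534 in pSHF, and only Tbx4 and Isl1 were tested, both higher in pSHF. The summed level of the limb and body wall list was 3658 to 4055 in HT and 7315 to 8609 in pSHF. That of the pharyngeal arch list was 2878 to 3220 in HT and 2751 to 3676 in pSHF. Hand2 makes up most of the HT sum of both lists.

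Several marker lists of other cell types differed in the same direction as the 6 genes, and their part in the results was not tested. All 10 neural crest genes were higher in pSHF, with a summed level of 3778 to 4555 in HT and 9680 to 10570 in pSHF; the smallest difference was that of Erbb3 (log2 fold change -0.34), and Foxd3, an early crest factor picked after its values were seen, stood at 0.184 ± 0.45 in HT and 79.5 ± 10.4 in pSHF. All 10 foregut endoderm genes were higher in pSHF, with sums of 1177 to 1696 in HT and 5310 to 6668 in pSHF, from Nkx2-1 (0.352 ± 0.863 in HT and 621 ± 120 in pSHF) to Krt8 (-0.28). Of 7 surface ectoderm genes 6 were higher in pSHF, with sums of 221.2 to 388.2 in HT and 1172 to 1482 in pSHF, from Krt5 (1.08 ± 0.94 in HT and 150.6 ± 27.8 in pSHF) to Grhl3 (-0.89). Of 7 somite genes 6 were higher in pSHF, with sums of 191.5 to 341.5 in HT and 601.8 to 1785 in pSHF, from Pax1 (-7.64) to Tcf15 (-3.88). Each of these 6 averaged at most 4.25 in HT and passed the filter of 5 through pSHF alone, which fixed its direction. The same holds for Foxd3, Nkx2-1, Krt5 and some other genes of their lists. Meox1, which was not called, averaged 290.2 in HT and 274.5 in pSHF and made up most of the HT sum. Most of the HT sum was Ets1 (mean 2839) for neural crest, Krt8 (748.6) and Krt18 (661.2) for endoderm, and Krt15 (164.3) and Grhl3 (103.2) for ectoderm. The sums are therefore not amounts of these cell types. All 4 neural genes tested were higher in pSHF, with sums of 498.7 to 566.9 in HT and 1704 to 2747 in pSHF, from Dcx (-5.13) to Tubb3 (-0.43). Tubb3 (mean 385.4) made up most of the HT sum. Sox1 was under the filter, at 0 in all HT libraries and in 3 pSHF libraries, with a pSHF mean of 1.02.

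On the other side, heart muscle genes summed to 653800 to 800600 in HT and 25940 to 56640 in pSHF, from Myl7 (log2 fold change 3.08) to Myl2 (10.52). All 9 erythroid genes, from Hba-a1 (2.97) to Hbb-bh1 (3.17), were higher in HT and held 1.64 to 7.03% of its counts against 0.345 to 0.683% in pSHF. The 6 genes of endothelium and endocardium all passed toward HT, from Kdr (0.32) to Nfatc1 (2.48), with sums of 16420 to 20690 in HT and 9323 to 10590 in pSHF. Second heart field genes ran from Foxf1 (-7.34) to Fgf8 (10.5 ± 6.11 in HT and 3.73 ± 2.72 in pSHF), with sums of 2252 to 2772 in HT and 14580 to 17570 in pSHF. With libraries scaled to the same total after the erythroid genes were removed, the log2 fold change was -1.02 for Shox2, -1.06 for Prrx2, -4.75 for Prrx1, -5.87 for Alx4, -6.00 for Alx1 and -5.91 for Pitx1.

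Annotated genes overlap the 6 only slightly. The antisense gene Gm47071 shares 165 exon bases with Pitx1 (6.21% of its exon length), and Rsrc1, on the other strand, shares 153 with Shox2 (4.62%). Gm28760 on the same strand shares 108 with Pitx1 and Gm17028 shares 243 with Alx1. Prrx1, Prrx2 and Alx4 share no exon base with another annotated gene. The labels call the reads stranded, although the kit they name does not by design mark strand, so reads of those short stretches cannot be assigned with certainty.

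A second deposited table of raw counts, with 233865 to 340434 counts per library, held few counts of these genes. Summed over 6 libraries, Prrx1 had 5 counts in HT and 173 in pSHF, Alx4 0 and 122, Alx1 0 and 18, Pitx1 0 and 8, Shox2 6 and 23, and Prrx2 34 and 42. Raw counts of Shox2 were 0 in HT libraries MR25, MR28R and MR30 and in pSHF library MR17. Yet MR25 was the highest HT library of Shox2 in normalized gene counts (614.7). Prrx1 was the only one of the 6 that passed the filter of edgeR's quasi-likelihood test there, with a log2 fold change of -4.68 and an adjusted p of 4.35e-14; of 3370 genes in that fit 23.1% were called higher in pSHF. With 0 to 2 counts per HT library and 17 to 47 per pSHF library, Prrx1 passed that filter through pSHF alone and had to differ, so this is a description and no second test. DESeq2 on that table gave Prrx2 a log2 fold change of -0.13 (SE 0.479, adjusted p = 0.919). The authors' deposited table gives a DESeq2 comparison that rests on the same libraries and scaling. In the authors' deposited table the log2 fold changes were -0.80 for Shox2, -0.87 for Prrx2, -4.55 for Prrx1, -5.68 for Alx4, -5.77 for Alx1 and -5.89 for Pitx1.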

How the data were processed

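Poly-A RNA of 6 HT and 6 pSHF libraries was sequenced; STAR, DESeq2 and mm10 are named in the submitters' processing notes, while versions, annotation and counter are not stated there. Per the file headers, the deposited table holds a normalized signal per library with the authors' log2 fold change, score (Wald statistic), p-value and adjusted p-value. Of its values below 20.5 reads, 46.5 to 49.4% were whole multiples of 1 step per library (tolerance 0.01 reads), so the depth is an estimate and no reads were recovered. The other deposited table holds raw counts. Column names hold the tissue and a library code, so the tissue alone defined the groups, and no replicate numbers were available to pair by.

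Differences were tested with limma 3.58.1 with a trended variance on log2(signal + 1). Genes averaging under 5 over the 12 libraries were left out, and p-values were adjusted over all genes tested by Benjamini-Hochberg with a threshold of 0.05. A gene averaging under 5 in 1 tissue passed that filter through the other tissue alone, which fixed its direction. Such genes include Pitx1, Gsc, Foxd3, Nkx2-1, Krt5 and every called somite gene toward pSHF, and Gjd3 and Fgf8 toward HT. The Prrx ratio was tested with an exact permutation test (SciPy 1.17.1). Raw counts were tested with edgeR 4.0.16 and DESeq2 1.42.0, in R 4.3.3. The limma and edgeR fits were tested on simulated data. Coordinates and lengths are those of GENCODE for GRCm38 (mm10), joined on the identifier stripped of its version, and its release may differ from that of the authors.

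The 6 genes and the 15 lists were chosen with earlier results of these data known. From each list the text names the called genes with the largest and smallest log2 fold change, and for each of the 6 genes the 3 with the nearest profile, predicted gene names left out; other genes are marked as picked after their values were seen. Some genes of the lists are not reported here.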

Additional observations from a re-analysis of the deposited data

Results flagged for a closer look

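Prrx2 in HT library MR28R stood at 806.6 normalized gene counts, below the other 5 HT libraries at 896.8 to 942.7. Its gap to the nearest of them was 0.663 of the range of all 6, above Dixon's critical value of 0.625. This was 1 of 12 combinations of gene and tissue looked at, and chance flags about 1 in 20. The same library had the highest erythroid share (7.03% of its counts), whose part in this value was not tested. Without it the log2 fold change of Prrx2 was -0.83, with an adjusted p of 1.8e-08 in limma.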

How the results depend on the processing

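Each of the 6 genes kept its direction and its call under 12 other settings (pseudocounts, filters on low values, scalings, limma's moderation, a stricter threshold and the authors' DESeq2 table), with log2 fold changes of -6.39 to -4.14 for Pitx1, -1.07 to -0.79 for Shox2, -4.81 to -4.53 for Prrx1, -1.11 to -0.83 for Prrx2, -6.05 to -5.34 for Alx1 and -5.92 to -5.57 for Alx4. Genes called numbered 10538 to 12277 against 11676. Leaving out each library in turn changed no call of the 6: the ranges were -6.10 to -5.58 for Pitx1, -0.93 to -0.69 for Shox2, -4.68 to -4.49 for Prrx1, -0.90 to -0.82 for Prrx2, -6.03 to -5.68 for Alx1 and -5.75 to -5.56 for Alx4, with 11422 to 11605 genes called. Wherever the filter was a mean of 5 or 20, also with a library left out, the direction of Pitx1 was fixed by the filter. That Pitx1 kept its call there is a description and no test. The difference in the Prrx ratio was -3.81 to -3.61 without a library (exact p = 0.00433 each time) and -3.70 to -3.68 with other pseudocounts. On the raw count table edgeR called 1629 genes and DESeq2 2188, and DESeq2 did not call Shox2 (-1.73, adjusted p = 0.204) or Prrx2 (-0.13, adjusted p = 0.919); the cause was not tested. Pitx1 had no adjusted p there in either tool. With the mean coding transcript as the length, chosen after seeing the data, 2 of the 6 changed place in pSHF and 0 in HT. No paired analysis was possible because the columns carry no replicate number.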

Other observations

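The libraries that were high in Shox2 were in part those high in Vsnl1, a calcium sensor gene of the sinoatrial node, picked after their values were seen. In HT the highest 3 libraries of Shox2 were MR25 (614.7), MR28R (537.0) and MR29 (516.6), and these were also the highest 3 of Vsnl1 (703.7, 577.9 and 591.8). In pSHF, MR18 (1007) and MR14 (950.5) were highest in Shox2 and, at 721.0 and 751.5, in Vsnl1, whereas MR13 was lowest in Shox2 (597.7) and above 3 other libraries in Vsnl1 (641.5). The tissue means of Vsnl1, 534.9 ± 107 for HT and 614.2 ± 115 for pSHF, were not called different (limma adjusted p = 0.20). The likeness was not tested.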
